A study of Homo sapiens with 16 samples.

Results

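The genes described here are 8 genes of telomere maintenance, TERT, DKC1, TERF1, TERF2, TERF2IP, POT1, ACD and TINF2, out of 60649 genes in the deposited count table. They were chosen by their function, which is telomerase for TERT and DKC1 and the shelterin complex for the other 6, and they were found in the table by their Ensembl identifiers matched to symbols in GENCODE. All 8 were counted in every library, and all 8 passed the filter on low counts, which kept 19103 genes. The cells were ASC52telo, a line of mesenchymal stem cells (MSCs) from human adipose tissue that was immortalized by introducing TERT, so the catalytic subunit of telomerase is carried by every group, controls included. Polyadenylated RNA was sequenced in 16 libraries, 4 per group. Cells labelled MmC-/GDF11- received neither agent and are called young MSCs. In the group MmC-/GDF11+ the young cells were given recombinant growth differentiation factor 11 (GDF11) at 10 ng/mL. The group MmC+/GDF11- was exposed for 18 h to 1.5 µg/mL of mitomycin C (MmC), which alkylates DNA, and these cells are called senescent. Cells of MmC+/GDF11+ had the same exposure and then GDF11. RNA was taken after 10 days. The study calls the replicates biological, but all come from 1 cell line in culture, and how they were kept apart is not given in the sources used here, so the p-values measure the spread between these libraries.

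Telomeres are the repeated DNA at chromosome ends, and they shorten with each division unless telomerase adds repeats back. Telomerase consists of the reverse transcriptase TERT and the RNA template TERC, which is held in a particle of box H/ACA RNA with dyskerin, the product of DKC1. Shelterin coats the repeats and hides the ends from the DNA damage response: TERF1 and TERF2 encode the proteins that bind duplex repeats, TERF2IP encodes RAP1, which rides on the TERF2 protein, POT1 binds the repeat strand where it is unpaired, ACD encodes TPP1, which tethers POT1 and recruits telomerase, and TINF2 encodes TIN2, the hub that joins the duplex binders to TPP1. Primary adipose MSCs have little telomerase activity, which is why lines such as this one are made with TERT.

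Total counts per library lay between 71275337 and 144204979, with a median of 86044010, and even the least counted member, POT1, had between 947 and 2350 counts per library. The MSC markers NT5E, THY1, ENG, CD44 and ITGB1 were all present, at medians between 557 and 2170 CPM, the counts scaled to a fixed library size after TMM normalization. Markers of other cell types (CD34, CD14, PTPRC, PECAM1 and EPCAM) summed to between 14.5 and 27.9 CPM in the young libraries without GDF11 and 15.3 and 21.4 CPM in those with it. In senescent libraries the sum was between 22 and 33.8 CPM without GDF11 and between 21.5 and 31.4 CPM with it. EPCAM had 20 counts in all libraries together. Of the 4 of these markers that could be tested, 2 were higher after MmC without GDF11 (CD14 and PECAM1) and 3 with it (PTPRC as well), and the part of such cells in the results below was not tested. The cell cycle inhibitor gene CDKN1A was higher after MmC by 2.74 on the log2 scale without GDF11 and by 2.62 with it, and the proliferation marker MKI67 fell by 1.70 and 1.58. Of 5 genes listed to check senescence, 1 was higher and 3 were lower in both comparisons, and of the 5 MSC markers 2 were higher without GDF11 and 3 with it. No MSC marker was called lower. The mean of THY1, which was not called, went from 1110 to 746 CPM without GDF11 and from 1020 to 758 CPM with it. Beside these counts, 22.9% and 23.4% of all genes were called higher and 22.4% and 23.3% lower. In these bulk libraries, fewer cells of a type and less RNA per cell cannot be told apart. All 16 libraries carry the same sequencing run in the labels. The paper nevertheless lists batch effects from technical issues among its limits, without naming the libraries concerned. The main fit has no term for a batch. The 4 libraries numbered replicate 1 stood apart from the other 12 on the first principal component of the deviations from the group means (37.7% of the variance), with scores between 0.215 and 0.559 against at most -0.032 elsewhere. Among the members, replicate 1 was the lowest library of its group in all 4 groups for TERF2, ACD and DKC1 and the highest in all 4 groups for TERF1. For the changes after MmC, values without replicate 1 are therefore given beside each member.

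TERT was by far the most abundant member. Per kilobase (kb) of the canonical transcript, the scale on which levels of different genes can be compared, its median over the 16 libraries was 244 CPM per kb, and its lowest library (195) lay above the highest library of any other member (36.4, for TERF2IP). The length of the introduced transcript is not given in the sources used here, so for TERT the canonical length is an assumption. The order of median level per kb was then TERF2IP at 31.3, TINF2 at 25.4, DKC1 at 23.8, ACD at 14.5, TERF2 at 10.1, TERF1 at 6.62 and POT1 at 4.74. The ranges of neighbours overlapped at every later step but 1. TERF2IP (28.5 to 36.4) overlapped TINF2 (19.6 to 31.6), TINF2 overlapped DKC1 (17.3 to 30.9), DKC1 overlapped ACD (10.1 to 21.7), ACD overlapped TERF2 (8.11 to 11.2), and TERF1 (5.77 to 7.91) overlapped POT1 (3.08 to 6.93). Only TERF2 and TERF1 were apart throughout. POT1 came nearer to TERF1 in young than in senescent libraries. In the MmC- groups they were close, at group means of 5.88 against 6.76 and 6.46 against 7.14 CPM per kb, and in the MmC+ groups POT1 was lower, at 3.52 against 6.32 and 3.72 against 6.56. The lower part of the order depends on the length used. With the union of all annotated exons in place of the canonical transcript, TERT (167) and TERF2IP (15.1) stayed first and second, ACD (6.81) came before DKC1 (6.38), and TERF1 (1.40) fell below POT1 (2.13).

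**Figure D1:**
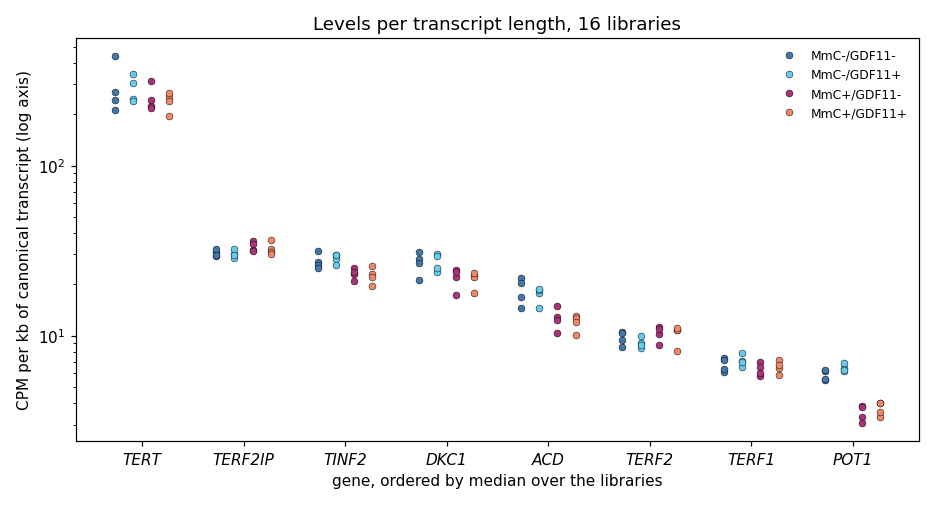
Levels of the 8 genes in CPM per kb of canonical transcript, on a log axis, with 1 point per library, coloured by group. TERT stands apart with a median of 244, and the POT1 points of the MmC+ groups lie at the bottom of the plot, below those of the MmC- groups.

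TERT (ENSG00000164362.21, chr5:1253147-1295068 of hg38 in GENCODE 44, the source of all gene positions here, minus strand) was counted 57682 to 184527 times per library. In MmC-/GDF11- its level was 855, 983, 1100 and 1780 CPM in replicates 1 to 4, and in MmC-/GDF11+ it was 990, 1240, 968 and 1400 CPM. After MmC the 4 replicates had 906, 1280, 981 and 875 CPM without GDF11 and 789, 1020, 1080 and 975 CPM with it. The highest library was the untreated replicate 4, and all 4 groups overlapped. Among the 19103 genes TERT ranked 96th by median CPM, and 250th of 19063 by CPM per kb. The counts do not tell an introduced copy from the gene on chromosome 5, and no DNA of the construct was looked for. The genes on either side on chromosome 5 were far lower. CLPTM1L had a median of 28.2 CPM (range 21 to 35.3) and LPCAT1 one of 2.37 (1.12 to 5.51), while SLC6A18 had 2 counts and SLC6A19 5 counts in all libraries together. SLC6A3 and NKD2 were listed at 0, but 100% of the words of 31 bases cut from their exons recur on alternate contigs of hg38, as do 72.4% of those of CLPTM1L and 93.7% of those of LPCAT1, which limits what those levels show. None of the TERT words was found elsewhere in the genome. Of these neighbours CLPTM1L was higher after MmC (0.32 without and 0.36 with GDF11 on the log2 scale), and LPCAT1 fell by 1.13 without GDF11. An antisense gene that covers 1.791% of the exonic sequence of TERT (ENSG00000287486) had 563 counts in all.

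The libraries of 1 group differed more in TERT than in most abundant genes. Its coefficient of variation between the 4 replicates was 35% in MmC-/GDF11-, where the median of the 1953 genes above 100 CPM was 13% and 97.4% of those genes varied less. For young cells with GDF11 it was 17.9%, and 84.6% of such genes varied less. Senescent cells had 18.2% without GDF11 and 13.1% with it, where 72.8% and 58.9% of such genes varied less. The untreated group with the widest spread is the one that holds replicate 4 at 1780 CPM, where its other libraries had 855 to 1100 CPM.

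Whether MmC changed these genes was asked by comparing 4 senescent with 4 young libraries, once without and once with GDF11, using edgeR's quasi-likelihood test with Benjamini-Hochberg adjustment over all 19103 genes and a threshold of 0.05. POT1, ACD and TINF2 were lower after MmC in both comparisons. The call of TINF2 without GDF11 was lost in most other settings but held with the replicate number as a block. TERF1, TERF2, TERF2IP and TERT did not pass the test in either. Whether the members that passed changed by more than the others was not tested. DKC1 passed with GDF11 and missed the threshold without it. Without GDF11, 3 of 8 members were called lower and 0 higher, where 22.4% of all genes were called lower, 22.9% higher and 45.3% in either direction. With GDF11, 4 of 8 were called lower and 0 higher, beside 23.3% lower, 23.4% higher and 46.7% in either direction of all genes. The median log2 fold change of the 8 members was -0.24 without GDF11 and -0.29 with it, and that of all genes -0.01 in both. In either direction the members were called about as often as all genes, and the call rate by itself does not set the 8 genes apart. The comparisons share no library, but they share 1 estimate of the spread.

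**Figure D2:**
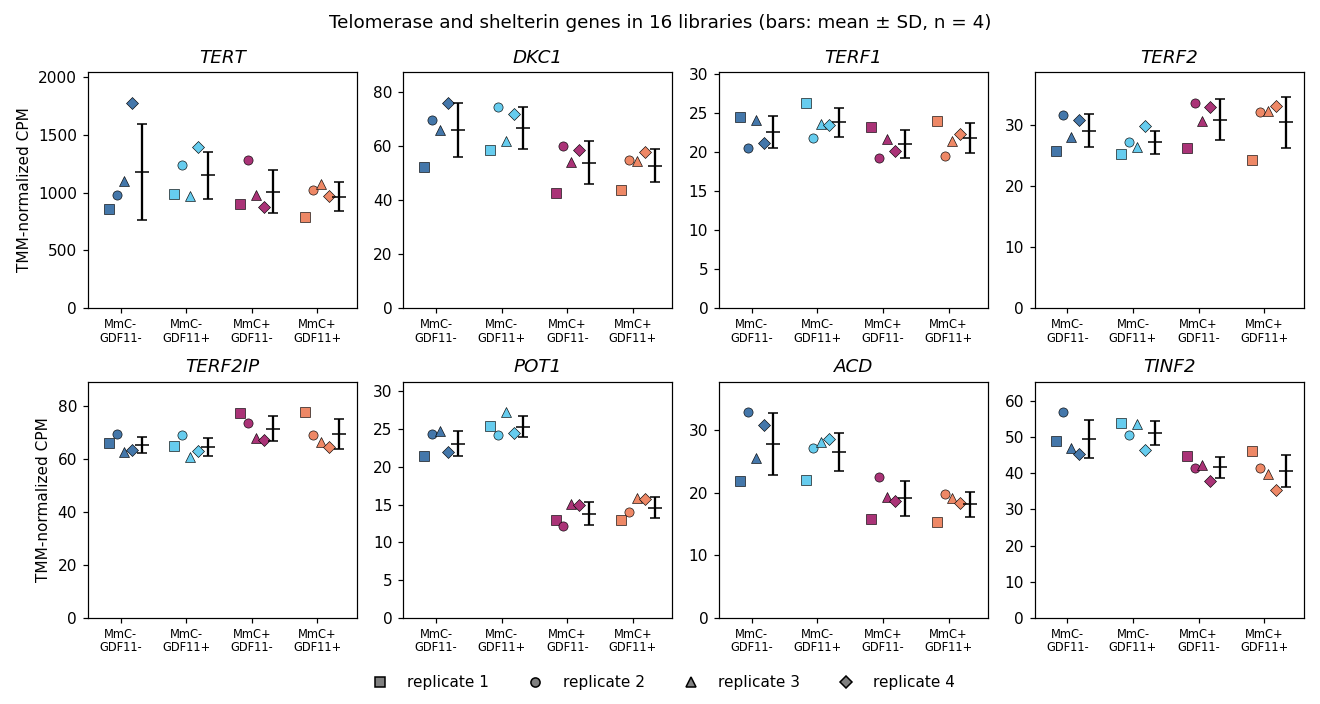
TMM-normalized CPM of each gene in the 16 libraries, with 1 symbol per replicate number and the mean ± SD of the 4 libraries beside each group, every vertical axis starting at 0. POT1 shows no overlap between MmC- and MmC+ libraries (21.4 to 27.2 against 12.1 to 15.8 CPM), whereas TERF1, TERF2, TERF2IP and TERT overlap.

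**Figure D3:**
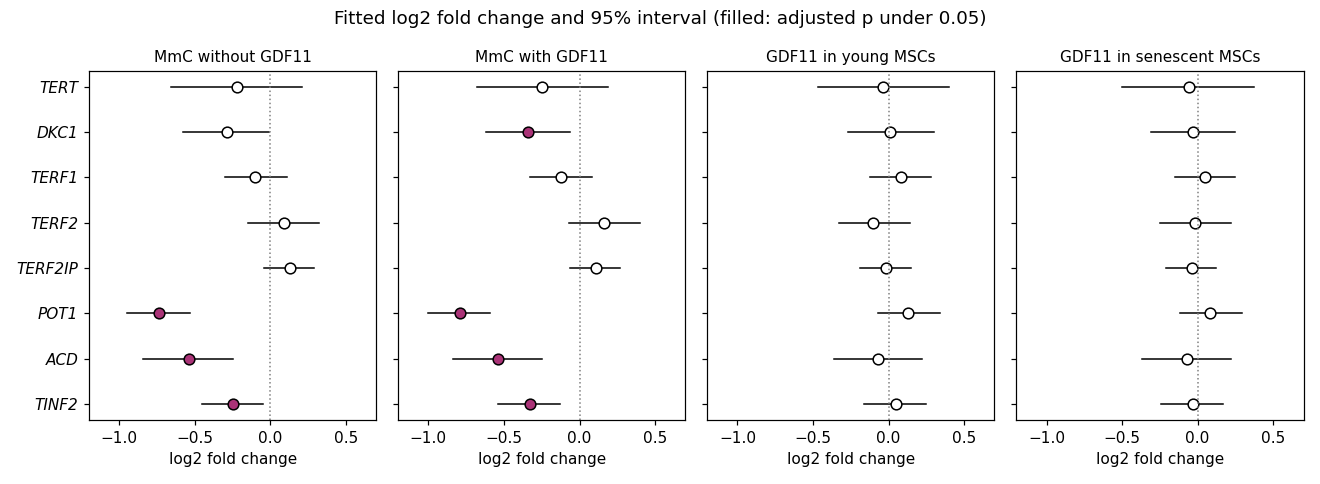
Fitted log2 fold change of each gene in 4 comparisons, with its 95% interval as a line and a filled point where the adjusted p was under 0.05. Filled points occur only in the MmC comparisons, for POT1, ACD and TINF2 in both and for DKC1 with GDF11, and all of them lie below 0.

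POT1 (ENSG00000128513.16, chr7:124822386-124929983, minus strand) showed the largest change of the 8. In young MSCs its level was 21.4, 24.3, 24.7 and 21.9 CPM without GDF11 and 25.4, 24.2, 27.2 and 24.5 CPM with it, in replicates 1 to 4. In senescent MSCs it was 13, 12.1, 15.1 and 15 CPM without GDF11 and 12.9, 14, 15.8 and 15.7 CPM with it. Every senescent library lay below every young one. The groups did not overlap in this direction in 18.2% of all genes without GDF11 and 21.2% with it. The log2 fold change without GDF11 was -0.74 (SE 0.0971, 95% interval -0.95 to -0.53, edgeR adjusted p = 2.06e-05), so that the level fell by 40.1%, and with GDF11 it was -0.79 (SE 0.0971, adjusted p = 1.05e-05), so that the level fell by 42.3%. By p, POT1 ranked 885th and 688th of 19103 genes. Without the replicate 1 libraries the edgeR adjusted p was 4.03e-05 and 4.42e-05. Against a minimum change of 1.5-fold, POT1 passed with GDF11 (glmTreat adjusted p = 0.0412) and did not without it (0.105). None of its exonic words of 31 bases occurs elsewhere in the genome.

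ACD (ENSG00000102977.17, chr16:67657512-67660810, minus strand) had 21.9, 32.8, 25.5 and 30.8 CPM in the untreated MmC-/GDF11- group and 22, 27.1, 28.1 and 28.5 CPM in MmC-/GDF11+. The senescent libraries had 15.8, 22.5, 19.3 and 18.6 CPM without GDF11 and 15.3, 19.7, 19.2 and 18.3 CPM with it. Without GDF11 the groups overlapped, since senescent replicate 2 lay above young replicate 1, while with GDF11 they did not. Within each replicate number the senescent library was the lower in 4 of 4 cases in both comparisons. Such counts, here and for DKC1 and TERF1 below, are descriptions. Same-numbered libraries were not taken as paired with GDF11, and how many of all genes reach 4 of 4 was not counted. The log2 fold change was -0.54 in both (without GDF11 SE 0.139, 95% interval -0.84 to -0.25, edgeR adjusted p = 0.00491, and with GDF11 the same interval, adjusted p = 0.00468), and the level fell by 31.3% and 31.4%. Leaving out replicate 1 from every group gave adjusted p = 5.03e-04 and 6.13e-04 in edgeR. Leaving out replicate 4 ended the call in both comparisons (0.0618 and 0.0504), and leaving out replicate 3 ended it with GDF11 (0.0525).

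TINF2 (ENSG00000092330.18, chr14:24238286-24242663, minus strand) changed least of the 3. Its young libraries had 48.9, 56.9, 47 and 45.3 CPM without GDF11 and 53.9, 50.6, 53.7 and 46.6 CPM with it. The senescent ones had 44.9, 41.5, 42.4 and 37.8 CPM without and 46.1, 41.4, 39.9 and 35.3 CPM with GDF11. The groups did not overlap in either comparison, although the highest senescent and the lowest young library were close, at 44.9 and 45.3 CPM without GDF11. The log2 fold change was -0.25 without GDF11 (SE 0.0964, 95% interval -0.45 to -0.05, edgeR adjusted p = 0.0438) and -0.33 with it (interval -0.54 to -0.13, adjusted p = 0.0102). The call without GDF11 was held in 7 of 28 other settings and the call with GDF11 in 25 of 28. Without GDF11 it was lost under RLE scaling (adjusted p = 0.0641) and in DESeq2 (0.0601), and it was held in 4 of 16 fits without 1 library, whose adjusted p went from 0.0395 to 0.17, the last without untreated replicate 2. With GDF11 it was lost without MmC+/GDF11+ replicate 4 (0.051) and without replicate 3 in every group (0.126). Without the replicate 1 libraries the edgeR adjusted p was 0.0301 and 0.00898. With the replicate number as a block, the change without GDF11 was -0.25 (interval -0.40 to -0.11, edgeR adjusted p = 0.0054). Same-numbered libraries deviated together in that comparison. Of the exonic sequence of TINF2, 27.9% lies opposite exons of GMPR2 and ENSG00000289979. The kit kept strand, but the strand setting of the counting is not given in the sources used here, and the part of those genes in the counts was not tested.

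The sequences before the starts of these 3 genes are shown because each was called lower after MmC in both comparisons, TINF2 with the limits given above. Whether the 3 genes share control was not tested. They are the 250 bases before the RefSeq start in GRCh38.p14, written 5′ to 3′ on the strand of the gene, at chr7:124929826-124930075 for POT1, chr16:67660261-67660510 for ACD and chr14:24242675-24242924 for TINF2, all minus strand. For TINF2 the RefSeq table held 2 windows, and the nearer to the GENCODE start is given. The GENCODE span of POT1 reaches into its window and that of ACD, which ends at 67660810, covers its whole window, since GENCODE holds transcripts that start further upstream. Capitals mark the matches to the motifs searched on both strands.
POT1: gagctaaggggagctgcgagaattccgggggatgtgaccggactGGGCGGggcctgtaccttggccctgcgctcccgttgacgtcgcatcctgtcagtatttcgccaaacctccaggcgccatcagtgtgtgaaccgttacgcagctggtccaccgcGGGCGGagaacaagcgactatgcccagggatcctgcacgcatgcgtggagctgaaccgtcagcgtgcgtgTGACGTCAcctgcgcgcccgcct
ACD: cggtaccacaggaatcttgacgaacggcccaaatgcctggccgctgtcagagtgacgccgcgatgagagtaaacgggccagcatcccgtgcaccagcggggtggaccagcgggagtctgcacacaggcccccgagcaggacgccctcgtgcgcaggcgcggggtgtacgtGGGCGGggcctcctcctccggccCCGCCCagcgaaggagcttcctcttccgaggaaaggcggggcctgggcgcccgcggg
TINF2: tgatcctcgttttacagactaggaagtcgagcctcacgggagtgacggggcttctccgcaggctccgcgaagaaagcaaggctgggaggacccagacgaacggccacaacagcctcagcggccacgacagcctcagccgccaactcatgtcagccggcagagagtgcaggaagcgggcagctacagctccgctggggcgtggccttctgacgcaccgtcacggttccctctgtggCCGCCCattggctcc
The capitals in all 3 are the GC box GGGCGG, or its reverse complement CCGCCC, bound by Sp1 and its relatives, with 2 matches for POT1, 2 for ACD and 1 for TINF2. The same letters stand in 42.6% of the 35116 RefSeq windows of this length. POT1 also held 1 palindromic cAMP response element, TGACGTCA, found in 1.646% of windows. The other letters searched were CCGGAAG (the ETS core, in 8.517% of windows), CACGTG (the E-box, in 6.345%), TTTCGCGC and TTTGGCGC (forms of the E2F site, in 0.439% and 0.550%) and TTTGAA (the cell cycle homology region, in 13.3%), and none of them was in these 3 windows. RefSeq windows were found for 6 of the 8 members. In the others with a window, the GC box occurred 4 times for DKC1 with overlaps, 2 times for TERT and 1 time for TERF2IP, so it did not separate the genes that were lower from those that were not. A match is a description of letters and not a shown binding site.

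DKC1 (ENSG00000130826.18, chrX:154762742-154777689, plus strand) had 52.5, 69.7, 66.2 and 76.2 CPM in the untreated MmC-/GDF11- group and 58.8, 74.7, 61.9 and 72 CPM in MmC-/GDF11+. After MmC it had 42.7, 60.1, 54.3 and 58.7 CPM without GDF11 and 43.8, 55, 54.6 and 58 CPM with it. Replicate 1 was the lowest library of each group. The senescent library was the lower one within each replicate number in 4 of 4 cases in both comparisons, and across numbers the groups overlapped without GDF11 and did not with it. The log2 fold change with GDF11 was -0.34 (SE 0.133, 95% interval -0.62 to -0.06, edgeR adjusted p = 0.0464). Without GDF11 it was -0.29 (SE 0.133, interval -0.58 to -0.01, adjusted p = 0.0809), which missed the threshold. Same-numbered libraries deviated together in the comparison without GDF11. With the replicate number as a block the same change passed (-0.29, edgeR adjusted p = 7.89e-04), so that 4 members were called lower there as well. That fit called 5560 of all 19103 genes lower, against 4275 in the main fit. Without the replicate 1 libraries DKC1 passed in both comparisons (adjusted p = 0.0152 and 0.0105), and without untreated replicate 1 alone it passed in the comparison without GDF11 (0.0248). These were the only 3 of 28 other settings that called DKC1 without GDF11. It missed the threshold in 25, with edgeR adjusted p = 0.242 without untreated replicate 4 and 0.248 without replicate 3 in every group. Its call with GDF11 was held in 7 of 28 other settings. Among them were 4 of 16 fits without 1 library, with adjusted p over the 16 between 0.028 and 0.144.

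TERF1 (ENSG00000147601.15, chr8:73008856-73048123, plus strand) had 24.5, 20.5, 24.1 and 21.1 CPM in the untreated MmC-/GDF11- group and 26.3, 21.8, 23.6 and 23.4 CPM in MmC-/GDF11+. Its senescent libraries had 23.2, 19.2, 21.7 and 20.1 CPM without and 24, 19.5, 21.4 and 22.3 CPM with GDF11. Across replicate numbers the groups overlapped, and within each number the senescent library was the lower in 4 of 4 cases in both comparisons. The log2 fold change was -0.10 without GDF11 (95% interval -0.30 to 0.11, edgeR adjusted p = 0.433) and -0.12 with it (interval -0.33 to 0.08, adjusted p = 0.31), and a fall as large as that of POT1 lies outside both intervals. Blocking on the replicate number gave edgeR adjusted p = 0.172 and 0.0856. Without the replicate 1 libraries, which were the highest of each group, the changes were still -0.10 and -0.12 (edgeR adjusted p = 0.378 and 0.312), and fits without 1 library gave -0.14 to -0.04 and -0.16 to -0.06. TERF1 is the member whose counts are least certain. Of its exonic words of 31 bases, 63.8% occur elsewhere on the main chromosomes, where copies of the gene could share reads, against 0% for TERT, POT1, ACD, TINF2 and DKC1, 9.607% for TERF2 and 6.026% for TERF2IP.

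TERF2 (ENSG00000132604.11, chr16:69355567-69408571, minus strand) had 25.7, 31.6, 28.1 and 30.9 CPM in the untreated MmC-/GDF11- group and 25.3, 27.2, 26.5 and 29.8 CPM in MmC-/GDF11+. After MmC the values were 26.2, 33.7, 30.7 and 33 CPM without GDF11 and 24.3, 32.2, 32.3 and 33.1 CPM with it. In MmC+/GDF11+ replicate 1 lay far below the other 3 libraries, which were themselves above every MmC-/GDF11+ library. The log2 fold change was 0.09 without GDF11 (95% interval -0.15 to 0.32, edgeR adjusted p = 0.551) and 0.16 with it (interval -0.07 to 0.40, adjusted p = 0.241). Leaving out that 1 library raised the value with GDF11 to 0.27 (adjusted p = 0.0377), and leaving out replicate 1 from every group gave 0.23 (adjusted p = 0.0342). The call of TERF2 with GDF11 thus rests on whether this library is used.

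TERF2IP (ENSG00000166848.7, chr16:75647773-75761872, plus strand) had 66.1, 69.2, 62.6 and 63.4 CPM in the untreated MmC-/GDF11- group and 64.9, 69.1, 60.7 and 63 CPM in MmC-/GDF11+. The senescent libraries had 77.2, 73.5, 68 and 66.9 CPM without and 77.5, 68.8, 66.4 and 64.6 CPM with GDF11. The groups overlapped in both comparisons. Its log2 fold change was 0.13 without GDF11 (95% interval -0.04 to 0.29, edgeR adjusted p = 0.195) and 0.11 with it (interval -0.06 to 0.27, adjusted p = 0.284). Without the replicate 1 libraries these changes were 0.09 (edgeR adjusted p = 0.37) and 0.05 (0.615), and leaving out MmC+/GDF11+ replicate 1 alone took the change with GDF11 to 0.06 (0.576). With the replicate number as a block, the interval of TERF2IP without GDF11 was 0.01 to 0.25. Its edgeR adjusted p there was 0.0691, which missed the threshold.

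For TERT the log2 fold change after MmC was -0.22 without GDF11 (SE 0.205, 95% interval -0.66 to 0.21, edgeR adjusted p = 0.397) and -0.25 with it (interval -0.68 to 0.19, adjusted p = 0.34). Its mean ± SD (n = 4) in young libraries was 1180 ± 412 CPM without GDF11 and 1150 ± 206 CPM with it, and in senescent libraries 1010 ± 183 and 967 ± 127 CPM. The intervals of TERT are the widest of the 8 and leave room for a fall to nearly the size of that of POT1. Untreated replicate 4 set the sign without GDF11, since the value without that library was 0.06 (adjusted p = 0.813). Leaving out replicate 4 from every group gave 0.12. With GDF11 the change of -0.25 became -0.13 without MmC-/GDF11+ replicate 4 (adjusted p = 0.661) and -0.12 without replicate 4 in every group (0.619). With all replicate 1 libraries left out the changes were -0.30 and -0.22 (edgeR adjusted p = 0.242 and 0.385).

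Some members of shelterin made up different shares of their sum in young and senescent libraries. Of the summed CPM per kb of the 6 shelterin genes, POT1 made up 5.96% ± 0.435 (SD, n = 4) in MmC-/GDF11- and 3.95% ± 0.544 in MmC+/GDF11-, and with GDF11 6.53% ± 0.336 and 4.26% ± 0.522. The share of ACD was 18.5% ± 2.47 and 14.1% ± 1.91 without GDF11 and 17.7% ± 1.97 and 13.7% ± 1.73 with it. TERF2IP went the other way, with 31.1% ± 1.36 and 37.5% ± 1.77 without GDF11 and 30.6% ± 1.59 and 37.1% ± 2.01 with it. TERF2 had 9.81% ± 0.607 and 11.5% ± 1.37, and 9.19% ± 0.696 and 11.7% ± 1.87. The share of TERF1 differed by less than its SD, with 6.89% ± 1 and 7.08% ± 0.615 without GDF11 and 7.23% ± 0.647 and 7.49% ± 0.642 with it. TINF2 had 27.8% ± 1.54 and 25.9% ± 1.4, and 28.8% ± 1.85 and 25.7% ± 1.99. Shares within a sum are tied to each other, and these were not tested. The sum itself was 98.9 ± 6.68 CPM per kb in young libraries without GDF11 and 98.8 ± 1.4 with it, and 89.4 ± 2.97 and 87.6 ± 2.89 in senescent ones. With its canonical length assumed, TERT stood at 2.24 to 4.52 times this sum in young libraries without GDF11 and 2.4 to 3.55 times with it, and at 2.48 to 3.42 and 2.15 to 3.07 times in senescent ones.

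Whether GDF11 changed these genes was asked in young and in senescent MSCs separately. No member passed the test in either, and edgeR's adjusted p was 1 for all 8. At an unadjusted p under 0.05 there were 0 members, and across all genes the same test called 0% at the adjusted threshold and gave 226 genes (1.18%) in young and 96 genes (0.503%) in senescent cells at the unadjusted one. DESeq2 called 1 gene in young cells, which was no member, and 0 in senescent cells. In young MSCs the log2 fold change of TERT was -0.04 (95% interval -0.47 to 0.40), of POT1 0.13 (-0.07 to 0.34), of ACD -0.07 (-0.36 to 0.22) and of DKC1 0.01 (-0.27 to 0.30). TERF1 had 0.08 (-0.12 to 0.28), TERF2 -0.10 (-0.33 to 0.14), TERF2IP -0.02 (-0.19 to 0.15) and TINF2 0.05 (-0.16 to 0.25). In senescent MSCs TERT had -0.06 (-0.50 to 0.37), POT1 0.08 (-0.12 to 0.29), ACD -0.07 (-0.37 to 0.22) and DKC1 -0.03 (-0.31 to 0.25). There the values were 0.05 (-0.15 to 0.25) for TERF1, -0.02 (-0.25 to 0.22) for TERF2, -0.04 (-0.21 to 0.12) for TERF2IP and -0.03 (-0.24 to 0.17) for TINF2. The intervals of TERF2IP are the narrowest and those of TERT the widest. In senescent MSCs, where same-numbered libraries deviated together, the replicate number as a block narrowed them, to -0.43 to 0.29 for TERT, -0.23 to 0.09 for ACD, -0.15 to 0.11 for DKC1 and -0.16 to 0.08 for TERF2IP, and edgeR's adjusted p stayed at 1 for all 8. ACD was lower with GDF11 in 4 of 4 same-numbered pairs there, with an unadjusted edgeR p of 0.614 in the main fit. In young MSCs, where same-numbered libraries were not taken as paired, TERF2 and TERF2IP were lower in 4 of 4. How many of all genes do so was not counted, so these counts show no change. No member was called for GDF11, in young or in senescent MSCs, in any of 28 other settings, the one without replicate 1 among them.

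The interaction of MmC and GDF11 compares the change after MmC with GDF11 to the change without it. No member passed in edgeR (adjusted p = 1 for all 8), 0 members had an unadjusted p under 0.05, while 172 of all genes (0.9%) did, and 0% passed after adjustment. For POT1 the difference between both MmC changes was -0.05 (95% interval -0.34 to 0.24), for TINF2 -0.08 (-0.37 to 0.21), for TERF2 0.08 (-0.26 to 0.41) and for TERT -0.03 (-0.64 to 0.59). That DKC1 passed with GDF11 and missed without it is therefore not a shown difference, its interaction being -0.04 (-0.44 to 0.35).

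The other genes of telomere maintenance were described from 7 lists of 45 genes, of which 43 passed the filter. After MmC without GDF11, 3 of them were called higher and 18 lower (48.8% called), and with GDF11 4 were higher and 19 lower (53.5%), where 45.3% and 46.7% of all genes were called in either direction and 22.4% and 23.3% of all genes were called lower. Among the partners of dyskerin in the H/ACA particle, NHP2 was lower in both comparisons (log2 fold change -0.74 and -0.87, edgeR adjusted p = 5.47e-04 and 1.52e-04), and NOP10 passed with GDF11 (-0.29). GAR1 passed in neither. The RNA template TERC had 29 counts in all libraries together and was not tested in these poly(A)-selected libraries. Of the words of NHP2, 42% occur elsewhere in the genome, and 28% of its exonic sequence lies opposite another gene.

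Of 9 genes for assembly, RNA maturation and trafficking of telomerase, 3 were lower and 0 higher in both comparisons. They were RUVBL2, an ATPase that helps assemble the enzyme (-0.82 and -0.84), NAT10, an RNA acetyltransferase (-0.34 in both), and COIL, the scaffold of Cajal bodies (-0.39 and -0.37), of whose words 24.96% occur elsewhere. WRAP53, which carries telomerase RNA to Cajal bodies, had -0.38 and -0.37 and missed the threshold. The nuclease gene PARN had the largest value of the list without GDF11 (-1.18, SE 1.51), with adjusted p = 0.554, and all of its exonic words also lie on alternate contigs. Of the 6 tested genes of the CST complex and of DNA polymerase alpha-primase, which fill in the second strand, CTC1 was higher in both (0.47 and 0.35), while its partner STN1 (-0.39 in both) and the polymerase subunit genes POLA1 (-0.65 and -0.64) and POLA2 (-0.67 and -0.81) were lower. The CST gene TEN1 had 24 counts in all and was not tested, and 75.9% of its exonic sequence is shared with a readthrough gene on the same strand.

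Of 9 genes for telomere replication and end processing, 5 were lower in both comparisons and 0 higher, beside 22.4% and 23.3% of all genes called lower. TIMELESS, which protects replication forks, had -1.07 and -1.10, the nuclease and helicase gene DNA2 had -0.97 and -1.02, and the helicase gene RECQL4 had -0.88 and -0.85. SLX4, the scaffold of structure-specific nucleases, had -0.82 and -0.80, and the helicase gene RTEL1 had -0.76 and -1.05, with 52.9% of its exonic sequence shared with a readthrough gene. BLM had -0.92 and -0.85 and missed the threshold in both. These genes act in replication throughout the genome, and MKI67 was lower in the same libraries. The part of dividing cells in these values was not tested.

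Among 6 regulators of shelterin, PARP1, which modifies proteins at damaged DNA, fell by 1.17 without GDF11 and by 1.07 with it (edgeR adjusted p = 1.35e-06 and 3.21e-06). The ubiquitin ligase subunit gene FBXO4, whose product marks the TERF1 protein for degradation, fell by 1.03 and 1.07, and SIAH1, a ligase for the TERF2 protein, by 0.48 and 0.59, with 26.8% of its exonic sequence opposite another gene. TNKS, the tankyrase that releases the TERF1 protein from telomeres, was higher with GDF11 (0.28), and without it had 0.18 with adjusted p = 0.113. Among 8 genes for DNA ends and damage kinases, TP53BP1 (0.55 and 0.50) and ATM (0.43 in both) were higher, and NBN (-0.63 and -0.71) and the Ku subunit genes XRCC5 (-0.34 and -0.35) and XRCC6 (-0.59 and -0.64) were lower. Of the words of XRCC6, 52.7% occur elsewhere, and 28.8% of the exonic sequence of TP53BP1 lies opposite another gene. ATRX and DAXX, a chaperone pair of telomeric chromatin, passed in neither comparison. DAXX had only 34 to 103 counts per library, and 99.3% of its words recur on alternate contigs, so its values (-0.36 and -0.40) do not show that the gene stayed at its level. No gene of the 7 lists passed for GDF11 in young or senescent cells.

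**Figure D4:**
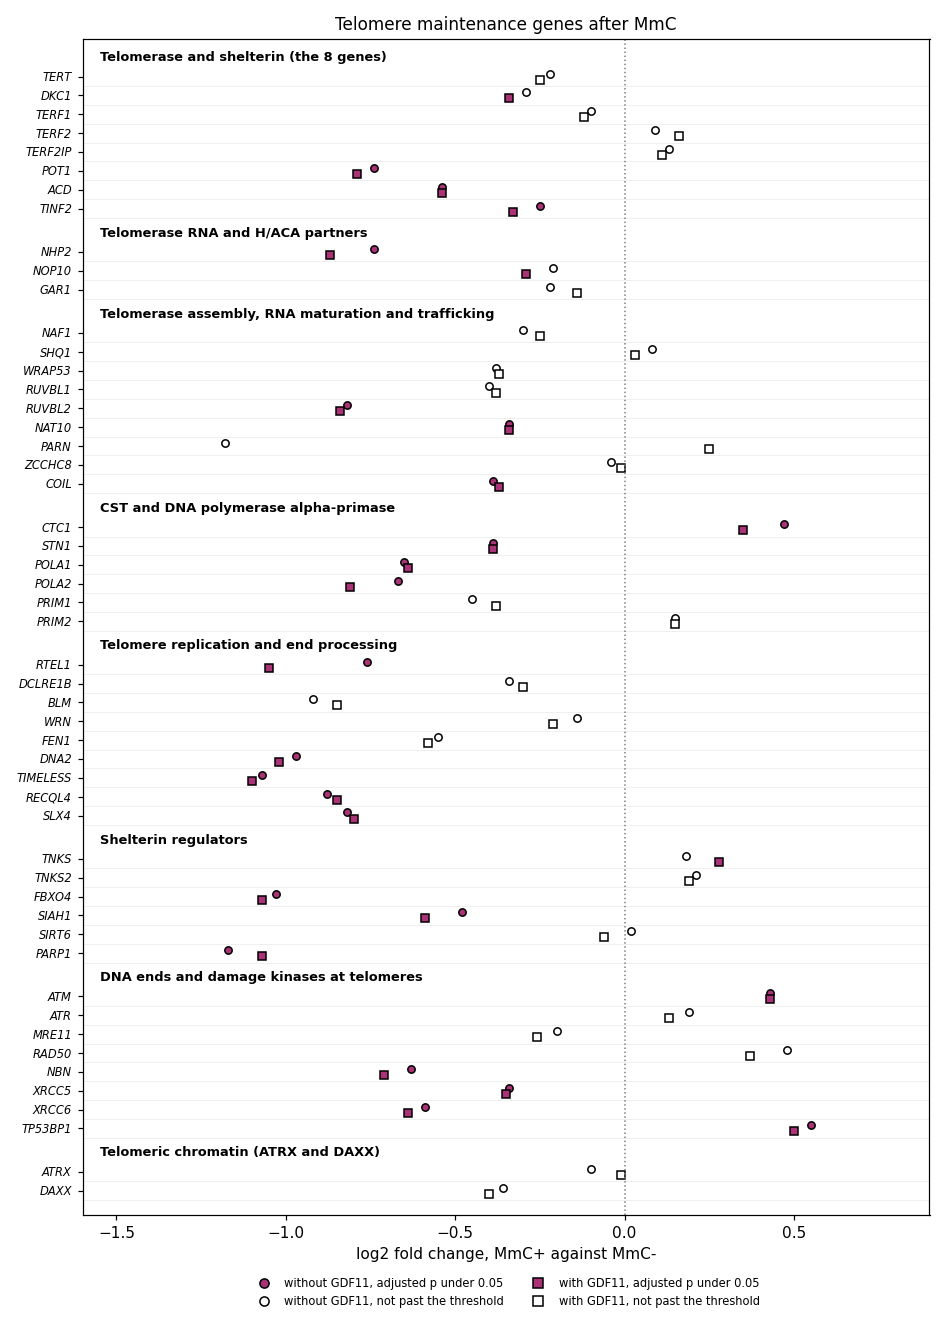
Log2 fold change after MmC for the 8 genes and the 43 tested genes of the 7 lists, circles without and squares with GDF11, filled where edgeR's adjusted p was under 0.05. Most filled symbols lie below 0, with TIMELESS at -1.07 and -1.10, and those above 0 are CTC1, TP53BP1 and ATM in both comparisons and TNKS with GDF11.

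The genes whose level over the 16 libraries was most like that of each member were sought among 10963 protein-coding genes by Pearson's r of log2 CPM, which is given as a description. The 16 points share their libraries and depths, and for the members that were lower after MmC the r also carries the difference between young and senescent libraries. TERT was closest to HCFC1 (r = 0.925), GEMIN5 (0.913) and SLC35A4 (0.903), and on the deviations from the group means to GEMIN5 (0.935), HCFC1 (0.932) and MSH6 (0.932). Closest to POT1 were CBX3 (0.992), LRRC40 (0.984) and ZNF22 (0.984). ACD lay nearest AAAS (0.986), NOC4L (0.984) and NCOA5 (0.979), and DKC1 nearest ATAD3A (0.985), MCM3 (0.969) and FANCA (0.968). For TINF2 they were NAXE (0.984), AP5S1 (0.966) and GRHPR (0.964), and for TERF2 they were ATXN2L (0.958), GIT1 (0.952) and FAM53C (0.947). TERF2IP was closest to HIF1AN (0.946), TRPM4 (0.945) and YBX3 (0.937), and TERF1 to ZNF117 (0.943), LNX1 (0.905) and FAM13B (0.904).

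Among the members themselves, the deviations from the group means of DKC1 and TERF2 went together (r = 0.904 over 16 libraries), as did those of ACD and TERF2 (0.853), while TERF1 and ACD went in opposite directions (-0.885). Without the replicate 1 libraries these values were 0.659, 0.637 and -0.728 over 12 libraries, so much of the first depends on the libraries that stood apart. For ACD and DKC1 the value went from 0.837 to 0.268. TERT and DKC1, the pair of telomerase genes, had 0.724 with all replicates and 0.668 without replicate 1. Other pairs moved more, such as TERT and POT1 (-0.19 to -0.752) and TERF1 and TERF2IP (0.113 to -0.75). Replicate 4, the highest for TERT in both young groups, was not left out of these values.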

How the data were processed

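Poly(A)-selected RNA of ASC52telo MSCs was measured in 16 libraries, 4 per group, grouped by the sample labels. Libraries were made with a kit that keeps strand. The authors mapped the reads to hg38 with HISAT2 2.2.1, counted them per gene with featureCounts 2.0.1 on GENCODE 38 and deposited raw counts without normalization. The strand setting, the counting of pairs and the handling of reads with several positions are not given in the sources used here.

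From the deposited counts, genes were kept by filterByExpr (minimum count 10, total 15), libraries were TMM-scaled, and edgeR 4.0.16 (R 4.3.3) fitted a robust quasi-likelihood model to all 16 libraries with 1 mean per group. Benjamini-Hochberg adjustment ran over 19103 genes at 0.05. The intervals at 95% come from the same fit. Depth was 71275337 to 144204979 counts per library, and member counts of 947 or more leave the spread between replicates as the main error. The fit was also run on simulated counts without an effect of replicate number. That run cannot show how the fit does where replicate 1 stands apart. Symbols and positions are from GENCODE 44, and 142 of 60649 identifiers had no match.

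Alternatives were upper-quartile and RLE scaling, the unfiltered table, only the libraries compared, the replicate number as a block, limma-voom (limma 3.58.1), DESeq2 1.42.0, glmTreat against 1.5-fold, and leaving out single libraries or replicate numbers. Levels by exon union were added after seeing the data. All members are named, with genes of a list that passed in both MmC comparisons or changed most in their list, and the 3 genes most like each member. WRAP53, NOP10, GAR1, TNKS, BLM, ATRX and DAXX were named after their values were seen. The members and lists were chosen with earlier results of these data known, and 1 marker of another cell type is not reported here. Same-numbered libraries were taken as paired where every pair deviated together from the group means (r over 0.1 across genes). This held without GDF11 for MmC (lowest r 0.113) and in senescent MSCs for GDF11 (0.448), and it failed with GDF11 for MmC (0.0293) and in young MSCs for GDF11 (0.0982).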

Additional observations from a re-analysis of the deposited data

Results flagged for a closer look

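In groups of 4 libraries, the gap between the lowest or highest library and its neighbour was compared with the whole range for the 8 members and PARN. Of the 32 groups of the members, 1 passed Dixon's 95% critical value for groups of that size, where chance gives about 1.6. TERF2 in MmC+/GDF11+ replicate 1 had 24.3 CPM, a gap of 0.898 of the range below the other 3 libraries at 32.2 to 33.1 CPM. PARN was examined after its values were seen, so its 3 values past that limit in 4 groups are not set against chance, and its exons recur in full on alternate contigs. It had 4.8 CPM in MmC-/GDF11- replicate 2, 3.99 CPM in MmC-/GDF11+ replicate 3 and 1.98 CPM in MmC+/GDF11- replicate 2, against a median of 0.137 CPM over all libraries. The cause was not tested.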

How the results depend on the processing

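Of the calls after MmC, POT1 was called in 27 of 28 other settings without GDF11 and in 28 of 28 with it, ACD in 26 and 25, TINF2 in 7 and 25 and DKC1 in 3 and 7. Asking for more than 1.5-fold (glmTreat) left 0 members without GDF11 and 1 with it, and 2799 and 2834 genes in place of 8655 and 8926. Leaving out libraries gave between 1 and 4 members without GDF11 and between 1 and 5 with it. The number of all genes called in these fits moved as well. It was smallest without replicate 3 in every group (5490 and 5505 of 19158) and largest without replicate 1 (10004 and 10164 of 19338). RLE and upper-quartile scaling moved the median log2 fold change of all genes by under 0.1, from -0.01 to at most 0.03.

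With the replicate number as a block, 4 members were called in each MmC comparison (POT1, ACD, TINF2 and DKC1), and 11066 and 11267 genes. The call of DKC1 without GDF11 was the one that changed (adjusted p from 0.0809 to 7.89e-04), while TERF2 with GDF11 stayed just short of the threshold (0.0505).

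Signs turned only in changes that did not pass. The interaction of ACD, at -0.00, was 0.00 with RLE, 0.01 with upper-quartile scaling, 0.01 with no filter, 0.01 in limma-voom and 0.00 in DESeq2, and TERT for GDF11 in young MSCs was 0.01 in limma-voom. Over the fits with a library or replicate number left out, TERT after MmC without GDF11 ranged from -0.43 to 0.12. For GDF11 in young MSCs the ranges were -0.17 to 0.02 (ACD), -0.08 to 0.09 (DKC1), -0.05 to 0.01 (TERF2IP), -0.16 to 0.23 (TERT) and -0.00 to 0.13 (TINF2). For GDF11 in senescent MSCs they were -0.15 to 0.02 (ACD), -0.12 to 0.06 (DKC1), -0.09 to 0.08 (TERF2), -0.09 to 0.00 (TERF2IP), -0.13 to 0.07 (TERT) and -0.09 to 0.03 (TINF2). For the interaction they were -0.09 to 0.10 (ACD), -0.14 to 0.05 (DKC1), -0.14 to 0.01 (POT1), -0.08 to 0.03 (TERF1), -0.08 to 0.02 (TERF2IP) and -0.29 to 0.20 (TERT).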
